A study of Mus musculus with 7 samples.

Results

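The 45 genes described here encode the steps that take glucose to pyruvate, the enzymes and carriers that decide whether pyruvate becomes lactate or enters mitochondria, and the hypoxia-inducible factors with some of their targets. They were chosen by name, and all 45 were found among the 53458 genes of the series. RNA was sequenced from long-term hematopoietic stem cells (LT-HSCs) of aged C57/BL6 mice, 3 of them Srp72+/- (libraries Srp72+/- 1 to 3) and 4 Srp72+/+ (WT 1 to 4). Srp72 encodes a subunit of the signal recognition particle, which brings ribosomes making secreted proteins to the endoplasmic reticulum. Per the labels' protocols, cells were sorted from bone marrow as negative for Ter119, B220, CD3, Mac1, Gr1, Flt3 and CD48 and positive for Sca1, cKit and CD150. The labels state neither how the Srp72 allele was made nor the exact age, nor whether marrow was pooled, so p-values measure the spread between these libraries, which may in part be technical. Libraries held between 18054322 and 35247472 estimated reads. The heterozygous gene itself had 71.9, 45.7 and 109.8 CPM in Srp72+/- libraries, against 99.6, 137, 103 and 88.4 CPM in WT libraries (CPM, reads scaled to library size with TMM). These groups overlapped, and Srp72 averaged 75.8 ± 32.3 CPM in Srp72+/- libraries and 107 ± 20.8 CPM in WT libraries (SD, n = 3 and 4). Its log2 fold change was −0.50 (SE 0.32, adjusted p = 0.9998 in edgeR's quasi-likelihood test).

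In glycolysis, hexokinases trap glucose as glucose phosphate, phosphofructokinase commits it to breakdown, and pyruvate kinase releases pyruvate. Lactate dehydrogenase then regenerates the NAD that glycolysis needs, while pyruvate dehydrogenase sends pyruvate into mitochondrial respiration unless the pyruvate dehydrogenase kinases switch it off. The hypoxia-inducible factors pair an oxygen-sensitive alpha subunit (Hif1a or Epas1) with Arnt, and in normal oxygen the prolyl hydroxylases mark the alpha subunit for destruction through Vhl. LT-HSCs reside in marrow of low oxygen and are known for using glycolysis more than respiration, and Hif1a and the pyruvate dehydrogenase kinases are known in mice to help keep them quiescent.

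Pyruvate kinase and lactate dehydrogenase show what isozyme choice means at the sequence level. The Pkm gene makes the M1 or the M2 enzyme by keeping exon 9 or exon 10, which have the same length of 167 bases and lie at chr9:59675029-59675195 and chr9:59675568-59675734 on the plus strand (GRCm38, GENCODE M21). Both are shown 5′ to 3′, and capitals mark the 64 positions at which they differ, which leaves 61.7% of positions identical.
Pkm1 exon 9: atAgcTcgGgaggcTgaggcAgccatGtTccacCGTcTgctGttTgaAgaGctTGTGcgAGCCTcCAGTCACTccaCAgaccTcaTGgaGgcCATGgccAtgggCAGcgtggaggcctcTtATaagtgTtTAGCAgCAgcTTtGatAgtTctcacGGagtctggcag
Pkm2 exon 10: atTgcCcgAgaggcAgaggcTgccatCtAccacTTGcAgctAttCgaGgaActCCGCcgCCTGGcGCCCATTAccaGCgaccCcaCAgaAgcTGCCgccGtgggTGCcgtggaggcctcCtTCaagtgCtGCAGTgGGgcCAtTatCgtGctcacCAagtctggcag

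Ldha and Ldhb encode the subunits of lactate dehydrogenase, and their promoters are shown because only Ldha is a classical target of Hif1a, whose heterodimer with Arnt recognises a core that reads ACGTG or GCGTG. Windows run from 250 bases before to 50 bases after a RefSeq start (GRCm38.p6), and capitals mark these cores on either strand. The Ldha window at chr7:46845554-46845853 (plus strand) held 5 matches to ACGTG and 2 to GCGTG, where the palindrome CACGTG counts once on each strand. A second Ldha window in RefSeq, at chr7:46846832-46847131, held 0 and 2 and is not shown. The Ldhb window at chr6:142507908-142508207 (minus strand) held 0 matches to ACGTG and 1 to GCGTG.
Ldha promoter: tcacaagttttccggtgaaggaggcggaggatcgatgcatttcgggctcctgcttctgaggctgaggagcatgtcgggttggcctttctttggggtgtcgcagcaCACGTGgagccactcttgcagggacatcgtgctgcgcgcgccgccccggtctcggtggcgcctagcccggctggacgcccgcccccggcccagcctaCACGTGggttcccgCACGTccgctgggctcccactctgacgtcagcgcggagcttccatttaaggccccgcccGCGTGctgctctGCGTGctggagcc
Ldhb promoter: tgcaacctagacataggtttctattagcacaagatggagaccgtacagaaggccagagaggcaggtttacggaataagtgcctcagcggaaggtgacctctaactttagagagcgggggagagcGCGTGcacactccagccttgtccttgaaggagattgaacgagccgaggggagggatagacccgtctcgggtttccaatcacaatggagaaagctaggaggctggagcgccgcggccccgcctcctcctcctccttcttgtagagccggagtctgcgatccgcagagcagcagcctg

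Promoter windows were found for 42 of the 45 genes, all but Slc2a3, Epas1 and Bnip3l. ACGTG occurred in at least 1 window of 26 of the 42 genes (61.9%), against 21.8% of all 27025 genes with a window. GCGTG occurred in 28 of the 42 (66.7%), against 35.2% of all genes, and either core in 38 (90.5%), against 46.7%. These shares describe letters in a window and were not matched for base composition. A match does not show that a factor binds there.

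Summed RNA levels of cell type markers differed widely between the libraries, and their part in the values that follow was not tested. Summed levels of 14 LT-HSC markers were 1320, 2206 and 2314 CPM in Srp72+/- libraries, against 2695, 197, 2196 and 2605 CPM in WT libraries. WT 2 was thus lowest by far and Srp72+/- 1 next. Procr, which encodes the LT-HSC surface receptor EPCR, had 9.002, 25.8 and 9.34 CPM in Srp72+/- libraries, against 19.4, 0.0639, 43.9 and 40.1 CPM in WT libraries. None of the 14 markers was at 0 reads in any library. The 11 neutrophil markers summed to 12814, 5492 and 1212 CPM in Srp72+/- libraries, against 125, 40737, 8968 and 2925 CPM in WT libraries. The 9 erythroid markers summed to 6296 CPM in Srp72+/- 1 and 8635 CPM in WT 2, against 143 to 1170 CPM in the other 5 libraries. For the 8 B cell markers these sums were 4223 CPM in Srp72+/- 1, 10285 CPM in WT 2 and 56.3 to 1295 CPM in the other 5. The 8 proliferation markers were also highest in WT 2, at 3682 CPM, followed by Srp72+/- 1 at 2325 CPM, with 620 to 1909 CPM in the other 5. The 7 megakaryocyte markers instead had their highest sum in Srp72+/- 3, at 659.9 CPM, with 64.4 CPM in Srp72+/- 1 and 19.0 CPM in WT 2. Of these markers, Pf4 had 405.2 CPM in Srp72+/- 3, against 9.02 to 119.03 CPM in the other libraries. The part of megakaryocyte RNA in the values of Srp72+/- 3 was not tested. The set is therefore summarised with all 7 libraries, without WT 2, and without WT 2 and Srp72+/- 1, and genes whose direction turned without WT 2 are named. In bulk RNA, fewer cells of a type and less RNA per cell cannot be told apart.

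All 45 genes were measured above the filter on low counts. Levels per transcript length (TPM), spread over several orders of magnitude. Gapdh, the dehydrogenase in the middle of the pathway, ranged from 406 to 769 TPM over the 7 libraries and overlapped with no other gene of the set. Eno1, the ubiquitous enolase, followed at 99.0 to 245 TPM, and Ldha at 70.4 to 101 TPM overlapped with it. Next in order of mean level came Gpi1 (53.0 to 118 TPM), Bnip3l (35.7 to 70.0 TPM), Pkm (30.5 to 57.8 TPM) and Aldoa (28.3 to 47.1 TPM), and each overlapped with its neighbours in this order. At the other end stood Epas1 at 0.0681 to 1.27 TPM, Ddit4 at 0.0327 to 1.31 TPM and Egln3 at 0.795 to 1.78 TPM. In the HIF system, Hif1a ranged from 3.01 to 10.2 TPM, Arnt from 4.25 to 15.7 TPM and Vhl from 2.33 to 10.6 TPM.

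**Figure D1:**
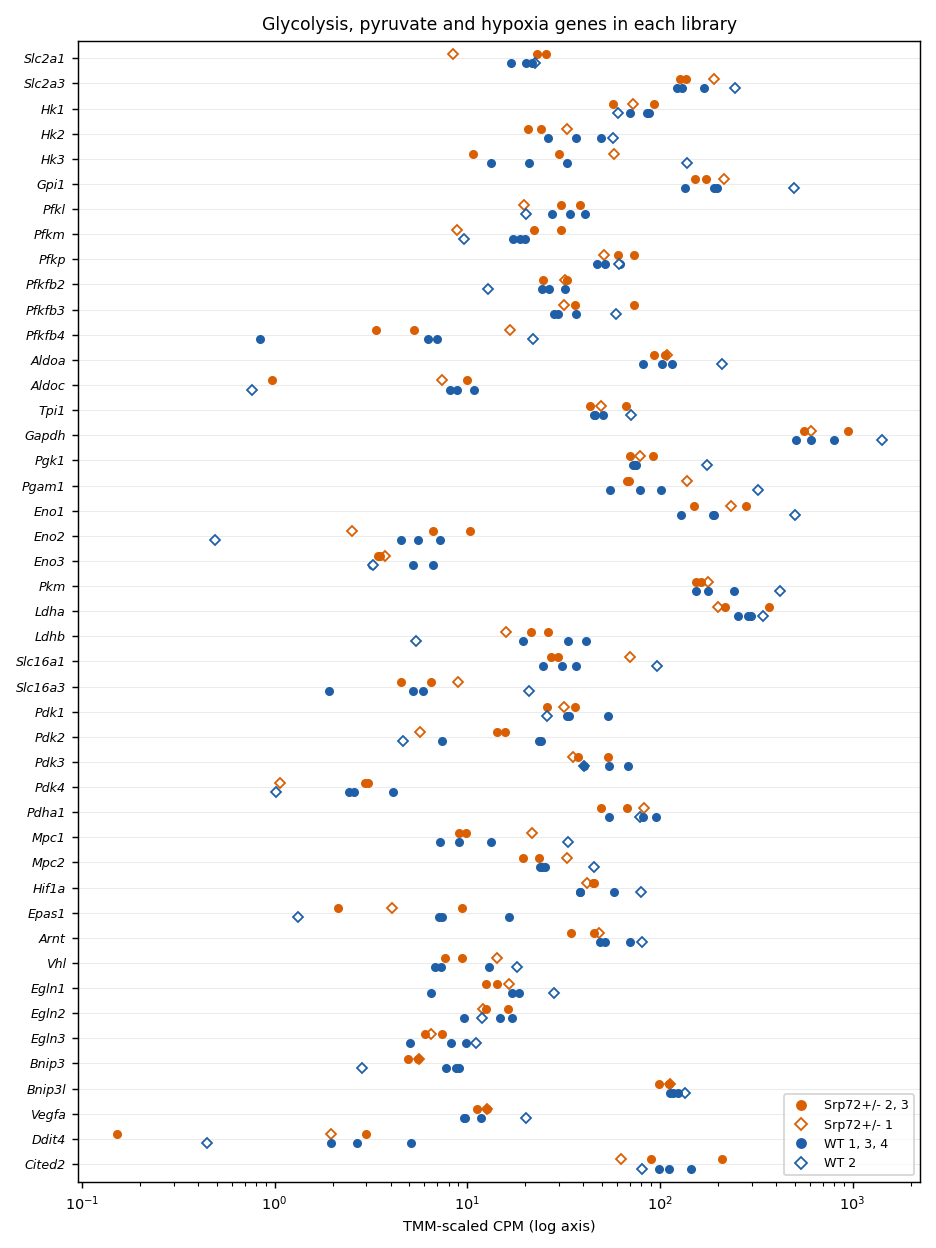
Level of each of the 45 genes in every library, in CPM on a log axis; orange marks are Srp72+/- libraries and blue marks, just under them, WT libraries, with open diamonds for Srp72+/- 1 and WT 2. WT 2 is the highest library for 23 genes and the lowest for 8, and the groups overlap for 43 of the 45 genes.

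Gene-level TPM adds up coding and non-coding transcripts, and short non-coding ones weigh heavily in it. For 32 of the 45 genes the coding transcripts held over 50% of the TPM in the median library. Coding transcripts held 13.1% to 17.3% of the Eno1 TPM, 10.4% to 21.9% of the Bnip3l TPM, 27.4% to 39.7% of the Pdk3 TPM and 18.4% to 31.6% of the Mpc2 TPM. Eno1 measured on coding transcripts alone ranged from 17.1 to 42.4 TPM, while Ldha ranged from 69.9 to 91.2 TPM, so the order of these genes depends on which transcripts are summed. With coding transcripts alone the leading isozyme was the same in 11 of the 13 families examined here. For brevity, isozyme here covers the members of all 13 families. Mpc1 and Mpc2 are subunits of the same carrier rather than alternatives, and transporters, HIF alpha subunits and mitophagy receptors are not enzymes.

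Most families had 1 leading isozyme, in Srp72+/- and WT libraries alike. The isozyme with the highest mean TPM led its family in all 7 libraries in 10 of 13 families. For glucose uptake, Slc2a3 (GLUT3, a high-affinity transporter) made up 90.1%, 69.6% and 70.1% of the TPM of Slc2a1 and Slc2a3 in Srp72+/- libraries, against 74.1%, 77.5%, 76.2% and 82.7% in WT libraries. The phosphofructokinase gene Pfkp, known as the platelet type, held 78.4%, 60.2% and 65.2% of its family in Srp72+/- libraries, against 58.8%, 77.2%, 60.7% and 63.6% in WT libraries. Pfkl, the liver type, held 14.0% to 26.5% and Pfkm, the muscle type, 7.5% to 16.8%. Among aldolases Aldoa held 82.8% to 99.2%, and among enolases Eno1 held 95.04% to 99.4%. Of the isozymes typical of brain and muscle, Aldoc held at most 17.2%, Eno2 2.0% and Eno3 3.7%. On coding transcripts alone Eno2 reached 9.77%, Eno3 16.5% and Pfkm 26.6%, and Eno1 still led its family in every library with at least 79.2%.

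Hexokinases were shared out more evenly. Hk1, which binds mitochondria and serves most tissues, held 39.7%, 39.7% and 54.1% of hexokinase TPM in Srp72+/- libraries, against 60.4%, 25.8%, 37.7% and 40.2% in WT libraries. Hk2, the inducible form, held 26.9%, 26.4% and 32.4% in Srp72+/- libraries, against 22.2%, 18.3%, 35.4% and 42.1% in WT libraries. Hk3, which is typical of myeloid cells, held 33.5%, 33.9% and 13.5% in Srp72+/- libraries, against 17.4%, 55.9%, 26.8% and 17.7% in WT libraries. It was the leading hexokinase in WT 2 alone, the library with the highest sum of neutrophil markers, and the part of those cells in it was not tested. In the PFKFB family, whose enzymes make and break the fructose bisphosphate that activates phosphofructokinase, Pfkfb3 led in 5 of 7 libraries with 27.3% to 63.6%. On coding transcripts Pfkfb2 had the higher mean share, so no leader stands for that family.

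At the pyruvate branch point, Ldha, which favours lactate, held 75.3%, 73.3% and 81.2% of lactate dehydrogenase TPM in Srp72+/- libraries, against 67.9%, 94.7%, 79.4% and 67.7% in WT libraries. In reads not corrected for length its share was 92.6%, 89.2% and 94.5% in Srp72+/- libraries, against 89.6%, 98.5%, 92.8% and 87.7% in WT libraries. The measures differ because 72.6% to 90.9% of the Ldhb TPM came from a coding transcript of 437 bases. Ldha led by either measure. Of the proton-coupled lactate transporters, Slc16a1 (MCT1) held 62.5%, 55.3% and 75.2% in Srp72+/- libraries, against 77.4%, 44.3%, 33.6% and 71.3% in WT libraries, and Slc16a3 (MCT4, the exporter typical of glycolytic cells) held the rest. In reads the Slc16a1 share was 80.7% to 95.1%, so it led in all 7 libraries by that measure. The leading pyruvate dehydrogenase kinase was Pdk3, at 78.4%, 57.0% and 67.6% of its family in Srp72+/- libraries, against 57.8%, 80.4%, 54.5% and 83.2% in WT libraries. Pdk1, a classical HIF target, held 9.9% to 26.5%, Pdk2 held 5.1% to 24.1%, and Pdk4, the kinase induced by fasting, held 0.4% to 7.4%. Both subunits of the mitochondrial pyruvate carrier were present, Mpc1 at 7.39 to 19.7 TPM and Mpc2 at 14.5 to 22.7 TPM. Mpc2 led in all 7 libraries on all transcripts, whereas on coding transcripts Mpc1 held 57.1% to 77.2%.

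Within the HIF system, Hif1a held 95.6%, 89.8% and 98.7% of alpha subunit TPM in Srp72+/- libraries, against 84.2%, 99.1%, 88.2% and 87.1% in WT libraries. Epas1, which encodes HIF-2 alpha, made up the rest. Egln2 (PHD1) was the leading prolyl hydroxylase at 65.2%, 61.5% and 74.2% in Srp72+/- libraries, against 58.5%, 54.1%, 67.4% and 73.2% in WT libraries. Egln1 (PHD2, the main oxygen sensor for Hif1a) held 10.3% to 30.6% and Egln3 (PHD3) 9.2% to 16.9%. This lead rests on the measure, since in reads the Egln1 share was the higher one in 4 libraries: 46.9% in Srp72+/- 1, against 53.7%, 54.9% and 43.1% in WT 1, WT 2 and WT 3. On coding transcripts Egln1 led in WT 1 and WT 2. Of the mitophagy receptors Bnip3l (NIX) and Bnip3, Bnip3l held 83.6% to 98.2%.

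In each of the 13 families the leading shares of Srp72+/- and WT libraries overlapped. The adjusted p of a two-sided exact permutation test was 1 throughout. With 3 against 4 libraries that test doubles the smaller tail over 35 splits, so no unadjusted p under 0.05 was possible. The smallest unadjusted exact p was 0.343, for the Hif1a share, which averaged 94.7% ± 4.49 in Srp72+/- libraries and 89.6% ± 6.51 in WT libraries (SD, n = 3 and 4). The widest difference of means was 7.67 percentage points, for the Slc16a1 share, with an exact p of 0.629. With so few libraries this test could not decide whether a share differed, whatever the size of the difference.

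**Figure D2:**
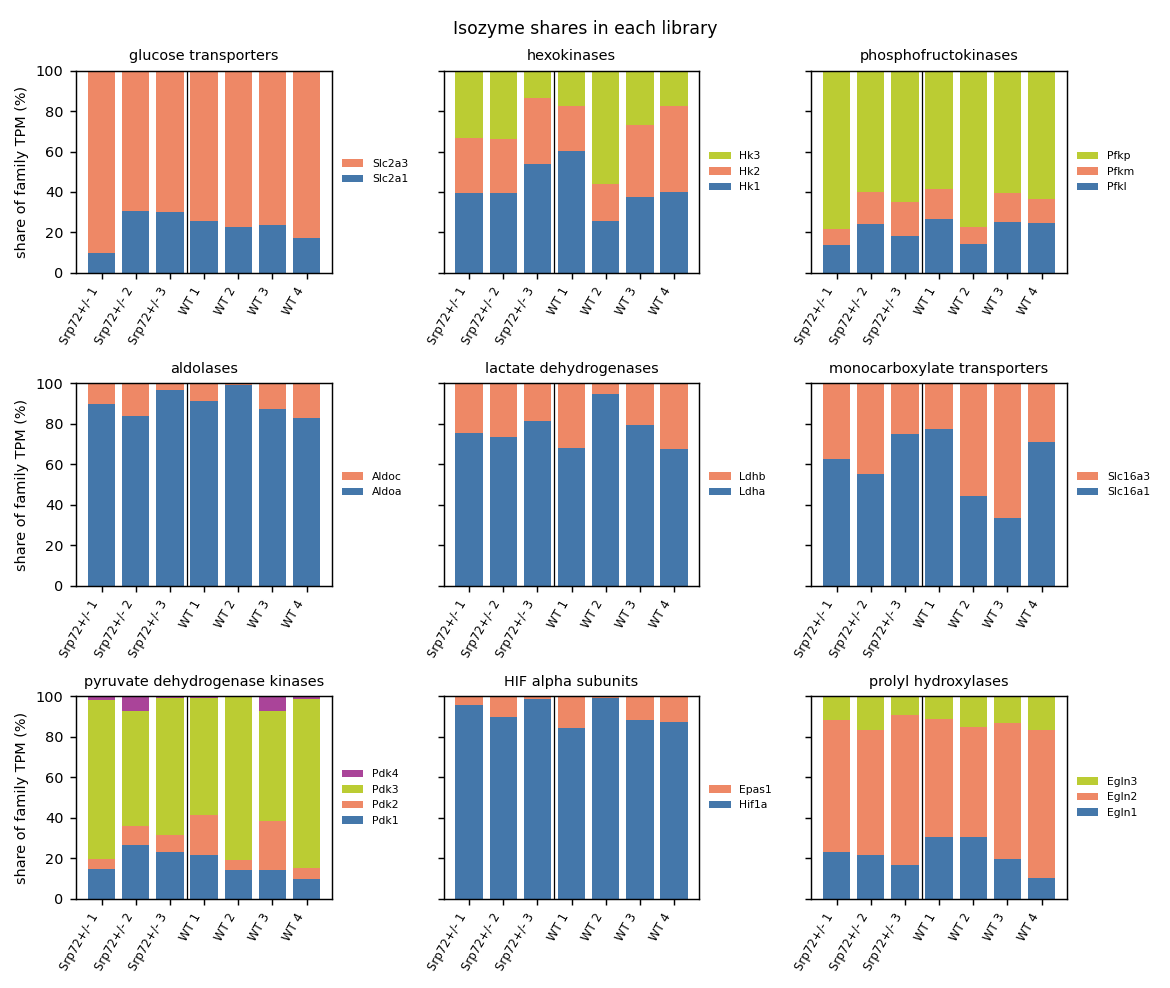
Share of each isozyme in the summed TPM of its family, in percent, for 9 of the 13 families; each bar is 1 library, with the 3 Srp72+/- libraries left of the line and the 4 WT libraries right of it. Slc2a3, Pfkp, Aldoa, Ldha, Pdk3, Hif1a and Egln2 lead in all 7 libraries, while Hk3 rises to 55.9% in WT 2 and Slc16a1 ranges from 33.6% to 77.4%.

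Pyruvate kinase was mostly of the M2 form, which is typical of proliferating and embryonic cells. The transcript with exon 10 shown above, Pkm-201, had 31.5, 24.9 and 21.1 TPM in Srp72+/- libraries, against 22.4, 44.3, 31.3 and 35.4 TPM in WT libraries. The full-length transcript with exon 9, Pkm-202, had 2.41, 4.12 and 1.70 TPM in Srp72+/- libraries, against 4.89, 4.58, 3.56 and 4.75 TPM in WT libraries. Of both, the M2 form made up 92.9%, 85.8% and 92.5% in Srp72+/- libraries, against 82.1%, 90.6%, 89.8% and 88.2% in WT libraries. These groups overlapped, with means of 90.4% ± 4.00 in Srp72+/- libraries (SD, n = 3) and 87.7% ± 3.86 in WT libraries (SD, n = 4) and a two-sided exact permutation p of 0.457. A transcript that holds exon 9 with the intron after it, Pkm-203, had 4.29, 4.70 and 5.57 TPM in Srp72+/- libraries, against 6.31 TPM in WT 4, and was listed at 0 in WT 1, WT 2 and WT 3. Counting it with the M1 form turned the difference from 2.76 to −7.76 percentage points (exact permutation p = 0.171). The sign of the difference therefore rests on how reads were divided among overlapping transcripts, while the M2 form held at least 73.9% in every library under either count.

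**Figure D3:**
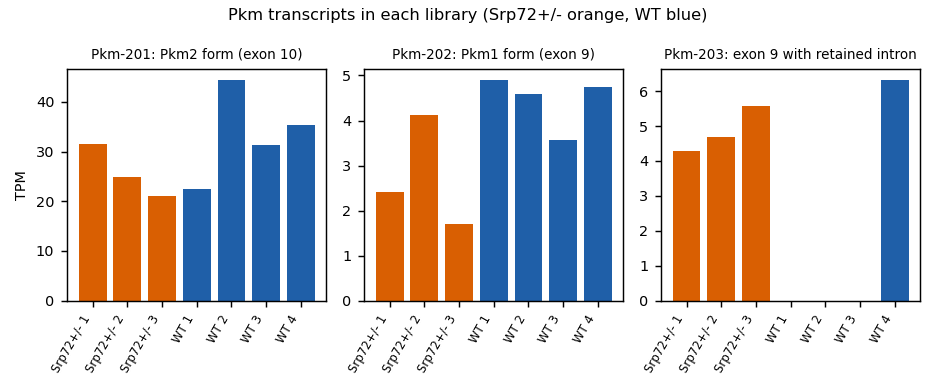
TPM of the transcript for the M2 form, of that for the M1 form and of the exon 9 transcript with a retained intron, 1 bar per library, Srp72+/- in orange and WT in blue, each panel with its own axis from 0. The M2 transcript is at 21.1 to 44.3 TPM, the M1 transcript at 1.70 to 4.89 TPM, and the retained-intron transcript is listed at 0 in WT 1, WT 2 and WT 3.

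The design compares LT-HSCs of aged mice heterozygous for Srp72 with those of WT mice. No gene of the set passed the threshold: 0 of 45 had an adjusted p under 0.05 in edgeR's quasi-likelihood test, where 0.0% of all 20314 genes tested passed. At an unadjusted p under 0.05 the count was also 0 of 45, where 1.8% of all genes lay below it. DESeq2 called 9 of the 20314 genes (0.0443%), and none of these was in the set. Fitted values were lower in Srp72+/- for 38 of the 45 genes, where 50.7% of all genes were lower, and higher for 7, where 49.3% of all genes were higher, with a median log2 fold change of −0.23 against −0.01 for all genes. This tilt was not seen when WT 2 alone was left out. Without that library, 22 genes were lower (46.9% of all genes) and 23 higher (53.1%), and the median was 0.04, as for all genes. Genes that turned to higher fitted values without WT 2 were Slc2a3 (0.11), Hk3 (0.55), Gpi1 (0.05), Pfkfb4 (0.85), Aldoa (0.04), Tpi1 (0.17), Gapdh (0.15), Pgk1 (0.12), Pgam1 (0.23), Eno1 (0.39), Slc16a1 (0.46), Slc16a3 (0.62), Mpc1 (0.47), Mpc2 (0.05), Vhl (0.22), Egln1 (0.04) and Vegfa (0.23), and Egln2 turned to −0.02. Without WT 2 and Srp72+/- 1 the median was −0.09, against 0.02 for all genes, with 28 genes lower and 17 higher. The share of all genes that were lower in that fit was not determined, so these counts cannot be judged against it.

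Groups that do not overlap occurred for 2 of 45 genes (4.44%), both lower in Srp72+/-, where 3.56% of all genes had such groups, 1.48% with Srp72+/- lower and 2.08% with Srp72+/- higher. Arnt (chr3:95434388-95497240, plus strand), the partner shared by both HIF alpha subunits, had 48.0, 45.3 and 34.6 CPM in Srp72+/- libraries, against 49.1, 80.4, 69.8 and 51.7 CPM in WT libraries. The highest Srp72+/- library lay just under the lowest WT library. The log2 fold change of Arnt was −0.56 (SE 0.26, adjusted p = 0.9998), and −0.41 without WT 2. Bnip3l (chr14:66985239-67008877, minus strand), which removes mitochondria in maturing red cells, had 112, 99.4 and 112 CPM in Srp72+/- libraries, against 113, 135, 124 and 116 CPM in WT libraries. Its groups were separated by a similarly narrow gap, and its log2 fold change was −0.18 (SE 0.18, adjusted p = 0.9998). With the share of such genes close to that in the whole data, neither is a result particular to this set.

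Of the genes of glucose uptake and phosphorylation, Hk2 had the largest fitted difference. Its levels were 32.9, 24.3 and 20.6 CPM in Srp72+/- libraries, against 26.1, 56.9, 36.6 and 49.2 CPM in WT libraries. WT 1 lay within the Srp72+/- range, and the log2 fold change was −0.70 (SE 0.33, adjusted p = 0.9998). Unadjusted p for Hk2 was 0.0642 with all libraries, 0.0458 without Srp72+/- 1 and 0.0250 without WT 1, and 0.128 without WT 2. Of all genes, 439 of 21528 had an unadjusted p under 0.05 without Srp72+/- 1, and 359 of 19821 without WT 1. Hk1 averaged 74.3 ± 18.2 CPM in Srp72+/- libraries and 75.7 ± 13.0 CPM in WT libraries (SD). Slc2a3 had 191, 137 and 128 CPM in Srp72+/- libraries, against 131, 247, 123 and 169.6 CPM in WT libraries. Srp72+/- 1 and WT 2 were the 2 highest, and the log2 fold change was −0.14 (SE 0.30). Gpi1, the isomerase that follows hexokinase, had 214, 153 and 173 CPM in Srp72+/- libraries, against 135, 497, 198 and 191 CPM in WT libraries. Only WT 2 stood apart, and the log2 fold change of −0.50 became 0.05 without it.

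The phosphofructokinase step held 4 of the 7 genes with higher fitted values in Srp72+/-. Pfkp had 51.3, 60.7 and 73.0 CPM in Srp72+/- libraries, against 62.3, 61.6, 47.1 and 51.6 CPM in WT libraries (log2 fold change 0.15, SE 0.22). Pfkm had 8.90, 22.2 and 30.5 CPM in Srp72+/- libraries, against 19.95, 9.63, 17.3 and 18.7 CPM in WT libraries (0.32, SE 0.45). Srp72+/- 1 and WT 2 were the lowest libraries for Pfkm, and both groups overlapped. Pfkfb3, whose enzyme mostly makes the activator of phosphofructokinase, had 31.9, 36.3 and 73.2 CPM in Srp72+/- libraries, against 28.1, 59.1, 36.7 and 29.5 CPM in WT libraries (0.30, SE 0.39). Srp72+/- 3, the library with the highest sum of megakaryocyte markers, was the highest for Pfkp, Pfkm and Pfkfb3. Without that library the log2 fold change of Pfkfb3 was −0.18. It was 0.59 without WT 2 and 0.80 without WT 2 and Srp72+/- 1, where the unadjusted p was 0.0440 and the adjusted p 0.9999. In that last fit 1 of the 45 genes and 849 of all 21073 genes tested had an unadjusted p under 0.05. Pfkfb2 had 32.2, 33.1 and 24.7 CPM in Srp72+/- libraries, against 24.5, 12.8, 26.7 and 32.0 CPM in WT libraries (0.32, SE 0.34). Only WT 2 fell below the Srp72+/- range by more than 1 CPM.

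In lower glycolysis 9 of 10 genes had lower fitted values in Srp72+/-, and 0 passed the test. Without WT 2, 7 of these 10 were fitted higher. Gapdh had 609, 563 and 951 CPM in Srp72+/- libraries, against 508, 1424, 801 and 610.1 CPM in WT libraries. Aldoa, which splits fructose bisphosphate, had 108, 92.9 and 106 CPM in Srp72+/- libraries, against 81.6, 211, 102 and 115 CPM in WT libraries. Pgam1, the mutase, had 139, 69.5 and 67.2 CPM in Srp72+/- libraries, against 54.8, 325, 79.0 and 101 CPM in WT libraries. WT 2 was the highest library for each of these 3 genes. The log2 fold change of Pgam1 was −0.61 (SE 0.62) with all libraries and 0.23 without WT 2, and its reads may be divided with the pseudogene Pgam1-ps2, which had 14.3 to 89.8 CPM. Eno1 had 233, 150.5 and 279 CPM in Srp72+/- libraries, against 128, 500.4, 192 and 188 CPM in WT libraries (−0.19, SE 0.47, and 0.39 without WT 2). Pkm had 178, 154 and 164 CPM in Srp72+/- libraries, against 155, 419, 178 and 242 CPM in WT libraries. Its log2 fold change was −0.59 (SE 0.35) with all libraries and −0.21 without WT 2. Eno2, the neuronal enolase, was the exception to the direction, with 2.51, 6.63 and 10.3 CPM in Srp72+/- libraries, against 5.57, 0.490, 7.26 and 4.51 CPM in WT libraries (0.54, SE 0.81).

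The 4 genes of lactate production and transport all had fitted values below WT, by small amounts. Ldha had 200.2, 217 and 368 CPM in Srp72+/- libraries, against 285, 344, 254 and 296 CPM in WT libraries. The highest and the lowest library were both Srp72+/-, and the log2 fold change was −0.17 (SE 0.27). Slc16a1 had 70.0, 27.2 and 29.7 CPM in Srp72+/- libraries, against 36.7, 96.3, 24.6 and 31.1 CPM in WT libraries (−0.16, SE 0.55). Again WT 2 and Srp72+/- 1 were the highest libraries. Ldhb, which favours the use of lactate, had 16.0, 26.2 and 21.4 CPM in Srp72+/- libraries, against 33.2, 5.42, 19.6 and 41.3 CPM in WT libraries, with WT 2 lowest. Slc16a3 had 8.95, 6.52 and 4.55 CPM in Srp72+/- libraries, against 1.91, 20.98, 5.90 and 5.22 CPM in WT libraries.

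The 7 genes of pyruvate entry and its control were likewise fitted lower in Srp72+/-, with 0 past the test and a median log2 fold change of −0.23. Pdk3 had 35.3, 37.6 and 53.6 CPM in Srp72+/- libraries, against 54.4, 40.3, 40.4 and 68.4 CPM in WT libraries (−0.27, SE 0.28). Pdha1, the catalytic subunit that these kinases phosphorylate, averaged 66.4 ± 16.5 CPM in Srp72+/- libraries and 77.7 ± 17.0 CPM in WT libraries (SD). Mpc2 had 33.1, 19.5 and 23.5 CPM in Srp72+/- libraries, against 25.2, 45.3, 23.9 and 24.5 CPM in WT libraries (−0.23, SE 0.33, and 0.05 without WT 2). The WT libraries other than WT 2 lay within the Srp72+/- range. Pdk1, Pdk2, Pdk4 and Mpc1 overlapped between the genotypes too, with log2 fold changes from −0.32 for Pdk2 to −0.11 for Pdk4.

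Of the HIF system and its targets, Hif1a had 41.8, 45.6 and 44.8 CPM in Srp72+/- libraries, against 38.5, 80.3, 38.6 and 57.8 CPM in WT libraries. The Srp72+/- libraries were close to each other and inside the WT range, and the log2 fold change was −0.29 (SE 0.30) with all libraries and −0.03 without WT 2. Epas1 had 4.06, 9.41 and 2.13 CPM in Srp72+/- libraries, against 7.13, 1.32, 7.36 and 16.4 CPM in WT libraries (−0.63, SE 0.81). Egln2 had 12.1, 12.5 and 16.2 CPM in Srp72+/- libraries, against 9.58, 12.0, 14.8 and 17.0 CPM in WT libraries (0.03, SE 0.32, and −0.00 with RLE scaling). Vhl, Egln1 and Egln3 overlapped between the genotypes, with log2 fold changes of −0.11, −0.28 and −0.37. Among the targets, Vegfa, the endothelial growth factor, had 12.7, 11.2 and 12.6 CPM in Srp72+/- libraries, against 9.64, 20.2, 11.8 and 9.76 CPM in WT libraries, with WT 2 highest. Bnip3 averaged 5.37 ± 0.366 CPM in Srp72+/- libraries and 7.11 ± 2.90 CPM in WT libraries, and Ddit4, an inhibitor of mTOR signalling, 1.70 ± 1.44 CPM in Srp72+/- libraries and 2.56 ± 1.95 CPM in WT libraries (SD). Cited2, which competes with HIF for its coactivator and is needed by mouse LT-HSCs, had 62.9, 89.8 and 211 CPM in Srp72+/- libraries, against 112, 80.6, 98.5 and 144 CPM in WT libraries. Both ends of its range were Srp72+/- libraries.

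For 13 of the 45 genes the fitted value was lower in Srp72+/- with all libraries and with any 1 library left out: Hk2, Eno3, Pkm, Ldha, Pdk3, Pdha1, Hif1a, Epas1, Arnt, Egln3, Bnip3, Bnip3l and Ddit4. The share of all genes that were lower in each of these fits was not determined. These fits have most of their libraries in common, so they do not test the direction independently. Of these genes, Ldha and Hif1a were 0.07 and 0.01 when WT 2 and Srp72+/- 1 were both left out. With the offset for length, described below, Hif1a and Bnip3l turned to higher. The 95% interval of the fold change lay within 2-fold in either direction for 15 genes and within 4-fold for 37. A difference inside the interval of its gene was compatible with these libraries at the 95% level.

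**Figure D4:**
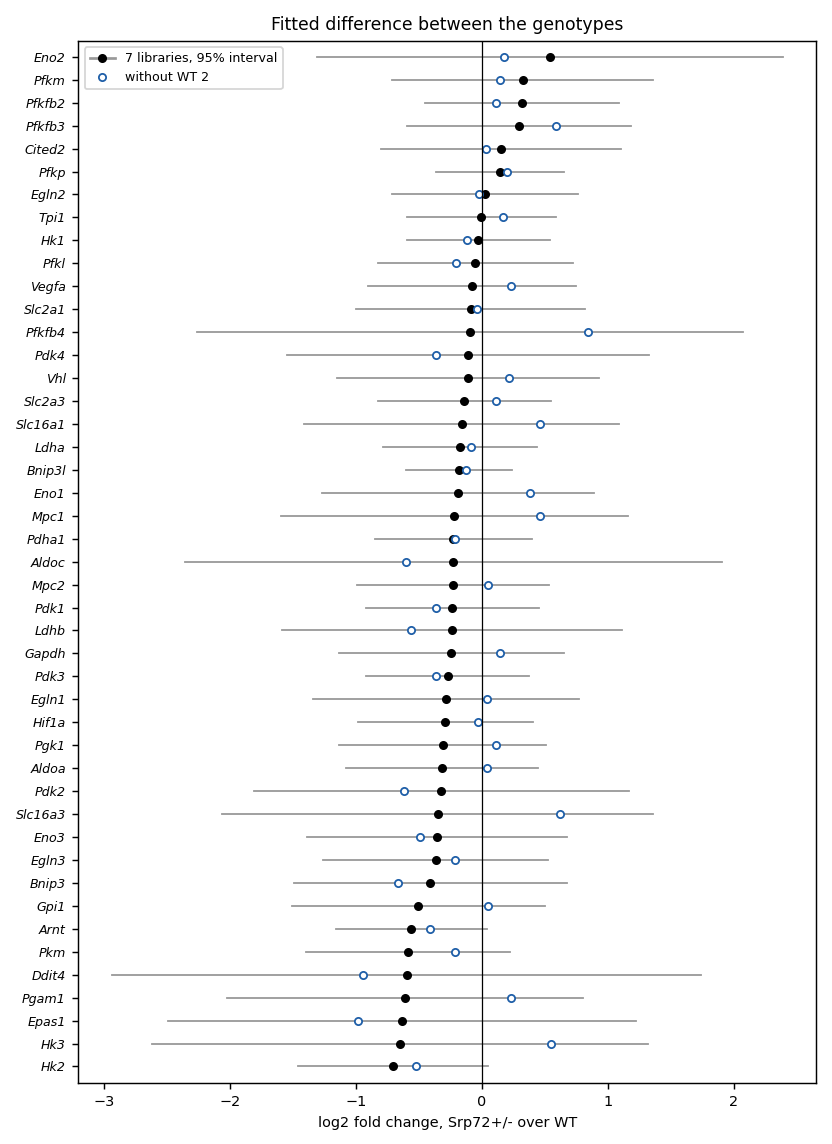
Log2 fold change of Srp72+/- over WT for the 45 genes, sorted; black points are the fit with 7 libraries with its 95% interval and open blue points the fit without WT 2. All 45 intervals include 0, and the points without WT 2 fall on both sides of 0, with 22 genes lower and 23 higher.

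Libraries of 1 genotype also differed from each other. WT 2 was the highest of the 7 libraries for 23 of the 45 genes (51.1%), where it was highest for 22.9% of all genes. It was the lowest for 8 genes (17.8%), where it was lowest for 26.6% of all genes. Relative to the median of the 5 libraries other than WT 2 and Srp72+/- 1, WT 2 had 6.59 times the Hk3 level, 4.67 times the Pgam1 level and 4.15 times the level of Pfkfb4, another enzyme of the PFKFB family. Slc16a3 stood at 4.02 times, Mpc1 at 3.71 times, Slc16a1 at 3.24 times and Gpi1 at 2.87 times that median. Hk2, Hk3, Gpi1, Aldoa, Tpi1, Gapdh, Pgk1, Pgam1, Eno1 and Pkm were all highest in WT 2, the library with the lowest sum of LT-HSC markers. Hk1 and Pfkp in WT 2 lay within the range of those 5 libraries, at 0.705 and 1.01 times that median. Pfkl and Pfkm in WT 2 lay below all 5, at 0.591 and 0.483 times that median, and only Srp72+/- 1 was lower still. Among the 8 genes lowest in WT 2, that median was 13.5 times the WT 2 level for Eno2, 11.6 times for Aldoc, 5.59 times for Epas1 and 4.84 times for Ldhb. The remaining genes lowest in WT 2 were Pfkfb2, Pdk2, Pdk4 and Bnip3. Srp72+/- 1 was next to WT 2 for 11 of the 23 genes that were highest there (47.8%, against 42.1% of all such genes) and for 4 of the 8 that were lowest, where it was next for 35.1% of all such genes. The part of the neutrophil, erythroid, B cell and proliferation markers that were also highest in WT 2 was not tested.

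**Figure D5:**
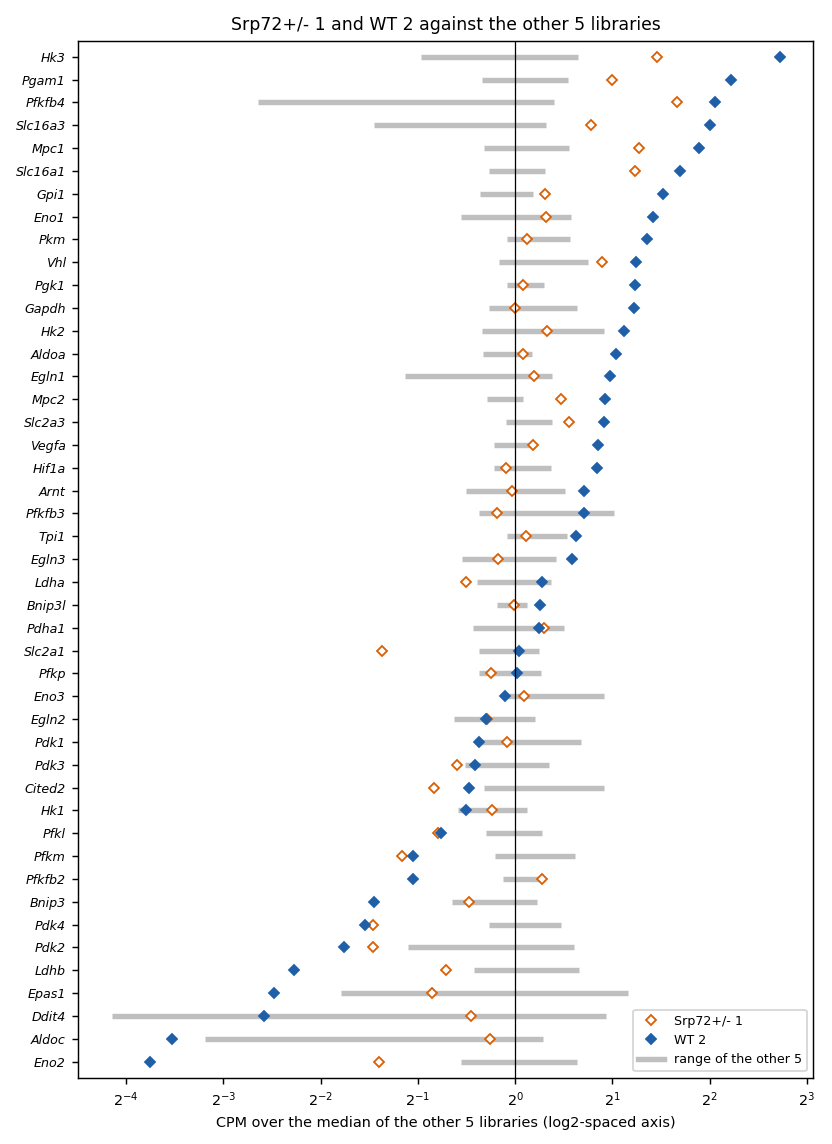
CPM of each gene in Srp72+/- 1 (open orange) and WT 2 (blue) divided by the median of the other 5 libraries, on an axis spaced by log2; grey bars span the other 5. WT 2 lies beyond the grey bars at both ends, from 6.59 times the median for Hk3 down to Eno2 and Aldoc, and Srp72+/- 1 often lies on the same side.

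Further genes of the pathway, 79 in number, were taken from a list of other isozymes, the rest of pyruvate dehydrogenase, the pentose phosphate pathway, hypoxia regulators, further hypoxia targets and regulators of stem cell energy metabolism. Of these 71 were tested, 0 passed, 27 had higher and 44 lower fitted values in Srp72+/-, and 3 had an unadjusted p under 0.05, where 1.8% of all genes did. The median log2 fold change was −0.06, against −0.01 for all genes, and 0.09 without WT 2. Groups did not overlap for 2 of the 71, where 3.56% of all genes had such groups. Bhlhe40, a hypoxia-induced transcriptional repressor, averaged 19.0 ± 6.27 CPM in Srp72+/- libraries and 44.7 ± 27.3 CPM in WT libraries (SD), with a log2 fold change of −1.23 (SE 0.47, adjusted p = 0.9998). Its WT mean rested largely on WT 3, which had 85.5 CPM, against 28.2 to 34.1 CPM in the other WT libraries and 11.8 to 22.7 CPM in Srp72+/- libraries. Pfkfb1, the liver enzyme of the PFKFB family, had 6.46, 5.67 and 4.85 CPM in Srp72+/- libraries, against 2.24, 1.41, 3.12 and 2.11 CPM in WT libraries. All 3 Srp72+/- libraries were above all 4 WT libraries, and the log2 fold change was 1.35 (SE 0.45, adjusted p = 0.9998). The other named genes, by the smallest p in each direction, overlapped: Car9 (0.90) and Pgam2 (0.88) were fitted higher in Srp72+/-, and Eloc (−0.83) and Dlat (−0.57) lower. Lower fitted values were found for 6 of 7 genes of the pentose phosphate pathway and 13 of 19 further hypoxia targets. Of all genes, 50.7% were lower. The medians of these lists were −0.15 and −0.36 with all libraries, and neither list was summarised without WT 2. Among the subunits of pyruvate dehydrogenase with its phosphatases the split was 4 higher and 4 lower.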

How the data were processed

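Per the labels' protocols, TruSeq V2 libraries were prepared from sorted LT-HSCs after whole-transcriptome amplification (NuGEN Ovation V2). Amplification of small inputs can widen differences between libraries. The authors deposited an expected count and a TPM value per transcript, made with Salmon 0.12.0 per the submitters' processing notes, which name the builds mm10 and GRCm38.p6. Of 136288 transcripts, 136176 matched GENCODE M21 (GRCm38). Strand settings were not stated in the labels. Reads of close copies and overlapping genes were divided by the authors' tool and are uncertain.

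Deposited counts were summed per gene and rounded, and deposited TPM summed per gene. A total of 3 counts equals 0.0851 to 0.166 CPM and covers counting error only. Genes passing filterByExpr (minimum count 10, minimum total 15; 20314 genes) were fitted with edgeR 4.0.16 (TMM, robust quasi-likelihood, no covariate) in R 4.3.3, with Benjamini-Hochberg adjustment over all of them and a threshold of 0.05. CPM use TMM-scaled library sizes. Isozyme shares were compared by two-sided exact permutation (scipy 1.17.1), adjusted over the 13 families.

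The members and lists were chosen with earlier results of these data known. Values in every library are given for the leading isozyme of each family and the 5 genes with the smallest p in each direction. Further genes were named by the same measure, 3 per direction with a mean of at least 1 CPM. Some other members are shown as well, chosen after their values were seen. Alternatives were 2 other scalings (RLE, upper-quartile), a stricter or no filter on counts, an offset for length, coding genes only, DESeq2 1.42.0, voom with quality weights (limma 3.58.1), a replicate block, each library left out, and WT 2 and Srp72+/- 1 left out together. Shares on coding transcripts and the other count of Pkm forms were chosen after seeing the data.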

Additional observations from a re-analysis of the deposited data

Results flagged for a closer look

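Mpc2 had 45.3 CPM in WT 2, against 23.9 to 25.2 CPM in the other WT libraries. This library lay far from the other libraries of its group, with a gap of 0.914 of the whole range. Bnip3l held 83.6% of the BNIP3 family in WT 4, against 95.03% to 96.6% in the other WT libraries, with a gap of 0.881 of the range. This holds for TPM of all transcripts only. In reads the share was 93.0% in WT 4, against 93.2% to 97.9% in the other WT libraries. On coding transcripts it was 86.8% in WT 4, against 82.5% to 94.6%. Of 35 values examined in the 4 WT libraries 2 were so far apart, and chance alone flags about 1 in 20.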

How the results depend on the processing

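The count of 0 called genes of the set held under all 17 alternatives. Over all genes, DESeq2 called 9, and leaving out 1 library gave 0 to 1. The median log2 fold change of the set ranged from −0.32 to 0.036 with 1 library left out, and was −0.074 with voom and −0.086 without WT 2 and Srp72+/- 1. That of the further pathway genes ranged from −0.17 to 0.094 with 1 library left out and was 0.028 without both.

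Among the 21 genes named by the rule, directions turned for Egln2 with RLE scaling (−0.00061) and DESeq2 (−0.00052), and with the length offset for Pfkfb3 (−0.33), Hif1a (0.30), Egln2 (−0.067) and Bnip3l (0.19). With voom they turned for Slc2a3 (0.057), Pfkm (−0.036), Pgam1 (0.060), Eno1 (0.097), Slc16a1 (0.18) and Egln2 (−0.054). Without WT 2 and Srp72+/- 1 they turned for Eno1 (0.35), Ldha (0.074) and Hif1a (0.0071). With 1 library left out, log2 fold changes ranged from −0.48 to 0.042 for Aldoa, −0.13 to 0.14 for Egln2, −0.41 to 0.39 for Eno1, −0.71 to 0.048 for Gpi1, −0.23 to 0.12 for Hk1, −0.49 to 0.052 for Mpc2, −0.18 to 0.59 for Pfkfb3, −0.086 to 0.67 for Pfkm, −1.06 to 0.23 for Pgam1, −0.75 to 0.46 for Slc16a1 and −0.36 to 0.11 for Slc2a3. The cause was not tested.

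Differences of shares, in percentage points, turned in reads for Pfkfb3 (0.625), Eno1 (0.169) and Slc16a1 (−0.510), on coding transcripts for Slc2a3 (3.72), Hk1 (−1.61) and Pfkfb3 (9.62), and without both libraries for Pfkfb3 (4.39), Eno1 (0.147) and Ldha (5.63). For Pkm the other count gave −7.76. With 1 library left out they ranged from −3.35 to 3.21 for Aldoa, −0.259 to 4.62 for Bnip3l, −0.709 to 0.752 for Eno1, −1.63 to 9.91 for Hk1, −4.03 to 4.99 for Ldha, −6.70 to 4.01 for Pdk3, −14.7 to 3.42 for Pfkfb3, −2.39 to 6.91 for Pfkp, −0.0264 to 14.6 for Slc16a1 and −7.78 to 2.47 for Slc2a3.

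Deviations of same-numbered libraries had correlations of −0.32, −0.16 and 0.00. Libraries of different numbers were not compared in this way, so these values cannot decide whether replicate numbers pair the samples. With the replicate block 0 genes were called, the medians were −0.17 for the set and 0.0056 for the further genes, and Hk1 was at 0.035. Depth limits Ddit4, Eno2, Aldoc and Pfkfb4, which fell below 1 CPM in at least 1 library.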
